A study of Mus musculus with 6 samples.

Results

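The T-box transcription factors described here were 7 genes, *Tbx2*, *Tbx3*, *Tbx4*, *Tbx5*, *Tbx15*, *Tbx18* and *Tbx20*, out of 19446 genes in the table of cultured cardiac fibroblasts (CFs). They were chosen by gene symbol, with their values in this comparison of genotypes already known, so their genotype differences are a description and were not used as support for anything. RNA-seq had been made from 3 libraries of CFs of wild-type (WT) mice and 3 libraries of CharmeKO mice, all C57BL/6J and 5 weeks old. In CharmeKO mice a polyadenylation signal had been placed in the locus of *Charme*, a long non-coding RNA of heart muscle. The cells had grown out of pieces of atrial tissue pooled from littermates, on fibronectin-coated plates in medium with serum, so both groups share the culture and neither holds ventricular tissue. What libraries with the same replicate number share is not stated, so the spread between libraries may be partly technical.

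T-box proteins are transcription factors that bind DNA through a shared domain, the T-box. In the heart they divide the work of patterning. *Tbx5* and *Tbx20* activate genes of working chamber muscle, *Tbx2* and *Tbx3* repress that program in the atrioventricular canal and the conduction system, and *Tbx18* marks the epicardium and the mesenchyme that comes from it. *Tbx4* is known from the mesenchyme of hindlimb and lung, and *Tbx15* from skeletal, skin and adipose precursors. In fibroblasts kept in culture, T-box genes are often read as a trace of where in the body the cells came from.

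The libraries held 38330019 to 46797446 reads assigned to genes, so that 3 reads, the floor used here for a count of 0, stood for 0.0641 to 0.0783 CPM, the reads scaled to library size. Such floors and intervals cover counting error only. The feature taken as *Charme*, CUFF405, was read 5, 15 and 11 times in the WT libraries (given in the order 1, 2, 3 here and below) and 0, 6 and 3 times in the CharmeKO libraries. Of 10 fibroblast markers, 10 were measured, with a summed level of 20971 to 52236 CPM in WT and 29151 to 43071 CPM in CharmeKO. Cardiomyocyte markers (5 of 10 in the table, *Ttn* at 0 in at least 1 library) summed to 5.53 to 18.4 CPM in WT and 5.81 to 24.4 CPM in CharmeKO. Endothelial markers (6 of 8 in the table, *Cdh5* at 0 in at least 1 library) summed to 4.10 to 7.04 CPM in WT and 1.69 to 8.86 CPM in CharmeKO. These sums thus fitted the label of the cells. Sums of other markers, given below, reached 393 CPM (haematopoietic, CharmeKO 1), 261 CPM (pericyte and smooth muscle, WT 3) and 249 CPM (epicardial and mesothelial, CharmeKO 1). The libraries are bulk RNA, and fewer cells of a type cannot be told apart from less RNA per cell.

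All 7 T-box genes were tested, that is, they had at least 10 reads in at least 2 libraries, as had 15948 genes of the table. Per length (reads per kilobase of exon, scaled to library size, RPKM), *Tbx18* had the highest mean level in both groups, 17.0 ± 14.3 RPKM in WT and 15.7 ± 13.6 RPKM in CharmeKO (SD, n = 3 each, as for all means below). In WT it was followed by *Tbx20* (6.18 ± 8.24 RPKM), *Tbx2* (5.47 ± 4.85 RPKM), *Tbx15* (5.34 ± 2.92 RPKM), *Tbx4* (3.89 ± 6.62 RPKM), *Tbx5* (2.91 ± 1.65 RPKM) and *Tbx3* (2.89 ± 2.39 RPKM). In CharmeKO the order was *Tbx15* (5.17 ± 3.61 RPKM), *Tbx20* (4.64 ± 6.45 RPKM), *Tbx5* (3.32 ± 1.86 RPKM), *Tbx3* (2.29 ± 1.86 RPKM), *Tbx2* (1.01 ± 0.539 RPKM) and *Tbx4* (0.660 ± 0.992 RPKM). Neighbours in either order differed by less than the larger of their SDs. Within single libraries the leading gene also changed. *Tbx18* led in 4 of 6 libraries, *Tbx4* led in WT 3 with 11.5 RPKM, and *Tbx15* led in CharmeKO 2 with 8.97 RPKM.

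**Figure D1:**
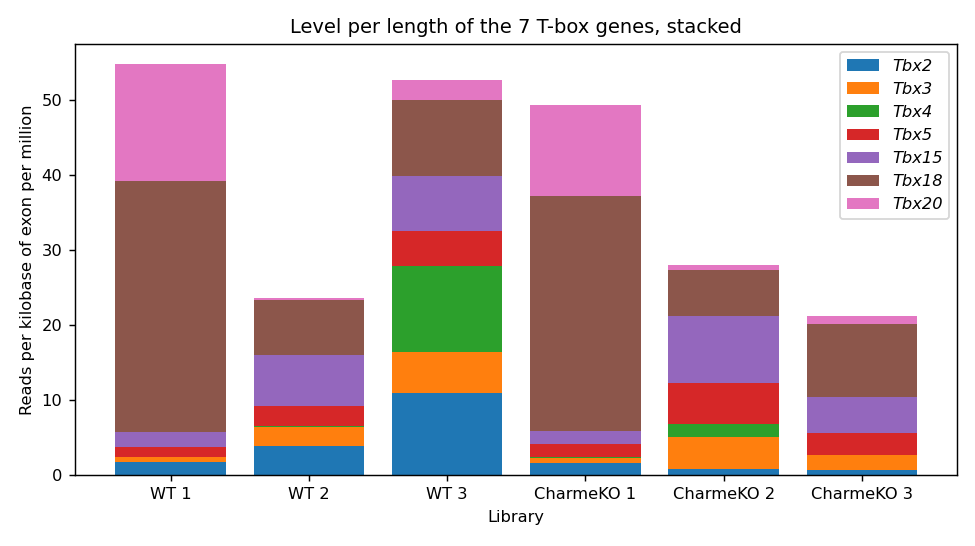
Stacked bars give the level per length of the 7 T-box genes (RPKM, y axis) in each of the 6 libraries (x axis), with 1 colour per gene. The libraries numbered 1 of both genotypes are filled mostly by *Tbx18* and *Tbx20*, and WT 3 is the library with a broad band of *Tbx2* and *Tbx4*.

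The share that each gene took of the summed T-box level shifted accordingly. *Tbx18* made up 61.0% of the summed RPKM in WT 1 and 63.6% in CharmeKO 1. In WT 2 and 3 its share was 31.4% and 19.3%, and in CharmeKO 2 and 3 it was 21.8% and 45.9%. *Tbx20* made up 28.5% in WT 1 and 24.5% in CharmeKO 1 but at most 5.22% in the other libraries. The stacked bars of level per length show the same mix in same-numbered libraries of both genotypes for number 1, and different mixes for number 3.

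*Tbx2*, a repressor of chamber muscle genes, was the 1 member whose groups did not overlap. It had 259, 564 and 1678 normalised reads in WT 1, 2 and 3 and 253, 109 and 92.2 normalised reads in CharmeKO 1, 2 and 3. Libraries 1 of both genotypes lay next to each other, and the separation came from high values in WT 2 and WT 3 and low values in CharmeKO 2 and CharmeKO 3. WT stood 1.02-fold above CharmeKO in pair 1, 5.17-fold in pair 2 and 18.2-fold in pair 3. The group means were 833 ± 747 in WT and 151 ± 88.3 in CharmeKO, and the fitted log2 fold change (CharmeKO minus WT, limma on log2(normalised reads + 1)) was -2.19 (SE 0.733). Of all genes tested, 1.98% were lower in CharmeKO with no overlap of the groups. Leaving out 1 library at a time gave -2.82 (without WT 1) to -1.48 (without WT 3). As the groups do not overlap, these values could only be negative, so they bear on the size and not on the direction. WT 3 carries much of the size of the difference.

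*Tbx4*, on chromosome 11 like *Tbx2*, had the widest range of the 7 genes. It had 11.8, 6.41 and 1659 normalised reads in WT 1, 2 and 3 and 25.0, 240 and 0.870 normalised reads in CharmeKO 1, 2 and 3. The gene was thus well expressed in WT 3, present in CharmeKO 2 and low elsewhere (0.870 to 25.0 normalised reads), and its groups overlapped. CharmeKO 3 held 1 read against 1510 reads in WT 3, a CPM ratio of 1836 with a 95% exact conditional interval of 329 to 72547. A range on the log2 scale at least as wide was found in 0.0564% of all genes tested. The fitted log2 fold change was -1.25 (SE 2.53), smaller than its error, and it was -2.65 with edgeR or DESeq2 on the recovered reads. It became 1.22 without WT 3 and 0.55 without CharmeKO 3, so its direction rested on those libraries.

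*Tbx3*, the second repressor, and *Tbx5*, an activator that defines atrial identity together with its partners, are both on chromosome 5. *Tbx3* had 183, 710 and 1514 normalised reads in WT and 162, 1106 and 549 in CharmeKO. *Tbx5* had 269.8, 523 and 916 normalised reads in WT and 340.3, 978 and 556 in CharmeKO. Both genes were lowest in the libraries numbered 1 of either genotype, and their groups overlapped. Their log2 fold changes were -0.33 (SE 0.954) for *Tbx3* and 0.17 (SE 0.553) for *Tbx5*. Without WT 3 or CharmeKO 1 the value of *Tbx3* became 0.36 or 0.42. Without WT 1 or CharmeKO 2 that of *Tbx5* became -0.28 or -0.22. No direction can thus be given for either gene.

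*Tbx15*, a factor of mesenchymal precursors outside the heart, followed the same course over the libraries. It had 315, 1036 and 1152 normalised reads in WT and 287, 1315 and 725 in CharmeKO. Its lowest values were again those of the libraries numbered 1, and the groups overlapped. The log2 fold change was -0.15 (SE 0.702), and it became 0.11 without WT 2, 0.19 without WT 3 and 0.44 without CharmeKO 1.

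*Tbx18*, the marker of epicardium, ran the other way over the libraries. It had 6694, 1430 and 2030 normalised reads in WT and 6351, 1127 and 1867 in CharmeKO. The libraries numbered 1 stood far above the rest in both genotypes, and the groups overlapped. CharmeKO lay below WT in all 3 pairs, by 0.076, 0.34 and 0.12 on the log2 scale. The fitted log2 fold change was -0.18 (SE 0.793), which became 0.48 without WT 1 and 0.36 without CharmeKO 2 in fits without pairing that each split a pair. With the replicate number as a block the estimate was the same and its SE 0.0976.

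*Tbx20*, an activator in chamber muscle and also expressed in epicardium and endocardium, had 7948, 101 and 1395 normalised reads in WT and 6235, 343 and 537 in CharmeKO. As for *Tbx18*, WT 1 and CharmeKO 1 were the highest libraries, and the lowest was WT 2. The groups overlapped, with means of 3148 ± 4207 in WT and 2372 ± 3347 in CharmeKO. The log2 fold change was 0.0070 (SE 1.76), which became -1.67 without WT 2 and -1.28 without CharmeKO 1. Its sign also turned with the tool, being -0.41 with edgeR or DESeq2 on the recovered reads.

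**Figure D2:**
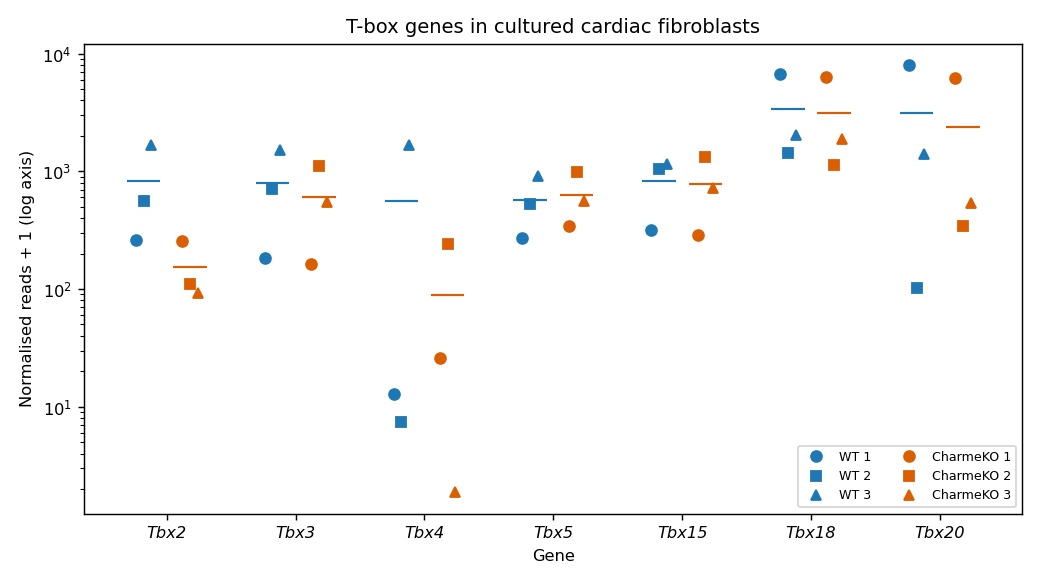
Points give the normalised reads plus 1 (log axis) of each T-box gene in the 3 WT (blue) and 3 CharmeKO (orange) libraries, with 1 symbol per replicate number and a horizontal line at each group mean. *Tbx2* is the gene whose groups do not overlap, and *Tbx4* spans 0.870 to 1659 normalised reads.

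Set against the whole table, 0 of the 7 T-box genes passed an adjusted p of 0.05 in limma, which called 0.00% of all genes tested. At an unadjusted p under 0.05, limma counted 1 member, *Tbx2*, and passed 0.897% of all genes. On the recovered reads edgeR called 0 members and DESeq2 called 0 members, while DESeq2 called 0.0502% of all genes. DESeq2 gave *Tbx4* no adjusted p in that fit, so *Tbx4* could not be called. With the replicate number as a block, DESeq2 called 64 genes in place of 8 (0.401% of all genes) and still 0 members, and limma and edgeR called 0 genes. At an unadjusted p under 0.05 limma with the block counted 1 member, beside 5.37% of all genes. Of the 7 log2 fold changes 5 were negative and 2 positive, with a median of -0.18 beside 0.0022 over all genes tested. *Tbx2* and *Tbx4* were past an absolute log2 fold change of 1, as were 5.04% of all genes tested. *Tbx2* and *Tbx18* were lower in CharmeKO in all 3 same-numbered pairs, and 0 members were higher in all 3. That is 2 of 7 members with 1 sign throughout, beside 30.4% of all genes tested (14.0% lower and 16.4% higher).

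**Figure D3:**
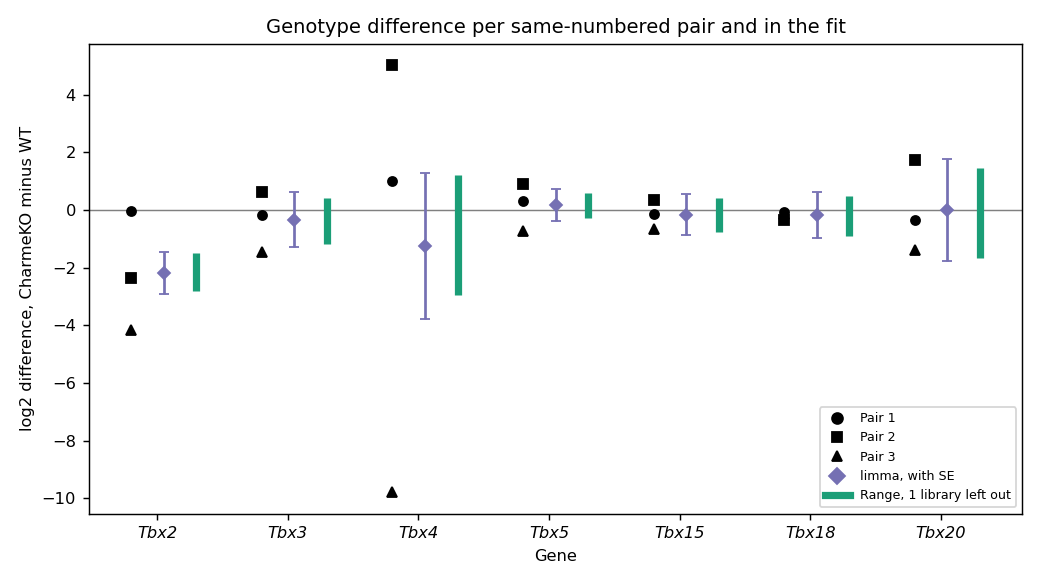
Black symbols give the log2 difference (CharmeKO minus WT, y axis) of each same-numbered pair for the 7 T-box genes (x axis), the diamond with bars the limma estimate with its SE, and the green bar its range when 1 library is left out. The range of *Tbx2* lies below 0 from -2.82 to -1.48, and the ranges of the other 6 genes cross 0.

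Most of the spread of 5 of the 7 genes went with the replicate number and not with the genotype. The share of the sum of squares of log2(normalised reads + 1) that fell to the replicate number was 98.9% for *Tbx18*, 93.7% for *Tbx15*, 91.6% for *Tbx20*, 85.4% for *Tbx3* and 73.8% for *Tbx5*. Over all genes tested the median of this share was 73.8%, and 1.52% of genes reached that of *Tbx18*, 13.2% that of *Tbx15*, 18.5% that of *Tbx20* and 31.9% that of *Tbx3*, while *Tbx5* lay at the median. *Tbx2* stood out with 4.61% for the replicate number and 59.7% for the genotype, a genotype share reached by 2.62% of all genes tested. For *Tbx4* neither term took more than 4.40%, and 91.9% was left over.

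**Figure D4:**
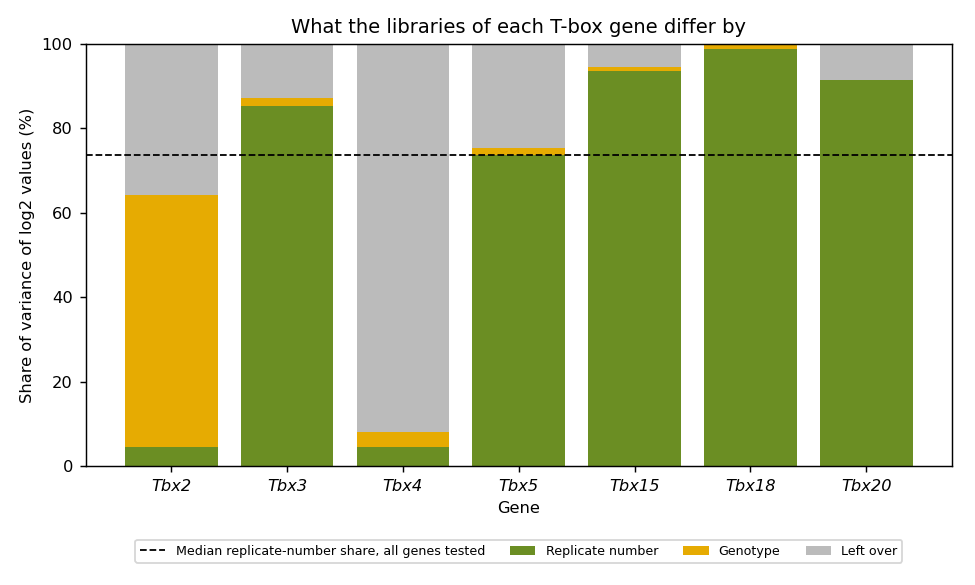
Stacked bars divide the sum of squares of log2(normalised reads + 1) over the 6 libraries (percent, y axis) of each T-box gene (x axis) into replicate number, genotype and what is left over, and the dashed line marks the median replicate-number share of all genes tested (73.8%). *Tbx18* is almost wholly replicate number, *Tbx2* mostly genotype, and *Tbx4* almost wholly left over.

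The 5 genes that followed the replicate number split into opposite courses. *Tbx18* had a mean of 6522 normalised reads in the libraries numbered 1, 1278 in number 2 and 1949 in number 3, and *Tbx20* had 7092, 222 and 966. These are levels in number 1 that were 4.04 and 11.9 times the mean of numbers 2 and 3. *Tbx3* (173, 908 and 1031), *Tbx5* (305, 751 and 736) and *Tbx15* (301, 1176 and 939) were lowest in number 1, by 5.61, 2.44 and 3.51 times. Within the low group the genes kept close proportions. The ratio of *Tbx15* to *Tbx3* in normalised reads moved over a 2.32-fold range across the 6 libraries, that of *Tbx15* to *Tbx5* over 2.34-fold and that of *Tbx3* to *Tbx5* over 3.45-fold. *Tbx18* to *Tbx20* moved over 16.6-fold and *Tbx2* to *Tbx4* over 167-fold.

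Summed markers of other cells also differed between the libraries. Epicardial and mesothelial markers summed to 249, 39.0 and 93.2 CPM in WT 1, 2 and 3 and to 249, 64.8 and 19.0 CPM in CharmeKO 1, 2 and 3 over 7 of 8 listed genes. Their sum was highest in the libraries numbered 1, where *Tbx18* and *Tbx20* were highest too. Within each genotype the cardiomyocyte, endothelial and haematopoietic sums were highest there as well. *Upk1b*, a uroplakin of mesothelium, had 4720, 67 and 279 reads in WT and 4608, 73 and 24 in CharmeKO. Not every gene of the list ran this way. *Aldh1a2*, also on it, was highest in WT 3, with 699, 38 and 1293 reads in WT and 696, 59 and 78 in CharmeKO. Pericyte and smooth muscle markers summed to 58.1, 156 and 261 CPM in WT and 41.7, 89.3 and 112 CPM in CharmeKO over 8 of 8 listed genes, with *Abcc9* at 0 in at least 1 library. Their sum was highest in WT 3, the library with the most *Tbx2* and *Tbx4*. Among CharmeKO libraries it was highest in CharmeKO 3, where *Tbx2* and *Tbx4* were lowest. Single genes of the list differed in CharmeKO 3, with *Cspg4* at 0.620 CPM and *Des* at 26.3 CPM. Of the 8 listed genes, 6 were lower in CharmeKO in all 3 pairs, beside 14.0% of all genes tested. Adipogenic markers summed to 54.3, 335 and 85.3 CPM in WT and 70.9, 609 and 131 CPM in CharmeKO over 4 of 6 listed genes. This sum was lowest in the libraries numbered 1, as were *Tbx3*, *Tbx5* and *Tbx15*. Single genes differed, since *Cebpa* was lowest in CharmeKO 2 (8.16 CPM) and *Fabp4* in WT 3 (2.52 CPM). Haematopoietic markers, with *Ptprc*, *Itgam* and *Fcgr1* at 0 in at least 1 library, ranged from 43.7 to 184 CPM in WT and from 24.8 to 393 CPM in CharmeKO. Single genes could run against the sum of their list. *Cd14* (haematopoietic), *Actn2* (cardiomyocyte) and *Egfl7* (endothelial) were highest in WT 2 among WT libraries and in CharmeKO 2 among CharmeKO libraries. The part of any of these cells in the T-box values was not tested.

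Since *Tbx18* and *Tbx20* were both highest in the libraries numbered 1, the 250 bases before their RefSeq start sites on the minus strand are given to let their promoters be compared (build GRCm38.p6, chr9:87731261-87731510 for *Tbx18* and chr9:24774304-24774553 for *Tbx20*, 5′ to 3′ along the gene). Capitals mark the matches found on either strand, a CCAAT box (CCAAT or ATTGG) in *Tbx18* and GC boxes (GGGCGG or CCGCCC) in *Tbx20*.
Tbx18: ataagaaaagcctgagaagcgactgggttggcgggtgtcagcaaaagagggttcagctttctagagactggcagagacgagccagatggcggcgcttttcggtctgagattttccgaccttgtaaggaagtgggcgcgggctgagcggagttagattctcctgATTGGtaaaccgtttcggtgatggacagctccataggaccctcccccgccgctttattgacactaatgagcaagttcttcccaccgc
Tbx20: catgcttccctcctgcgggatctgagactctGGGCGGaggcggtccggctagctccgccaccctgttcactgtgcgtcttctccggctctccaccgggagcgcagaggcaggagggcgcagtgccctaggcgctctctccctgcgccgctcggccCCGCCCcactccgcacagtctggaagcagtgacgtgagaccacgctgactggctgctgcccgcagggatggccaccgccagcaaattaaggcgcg
The windows had no matched motif in common. *Tbx18* held 1 CCAAT box, as 33.8% of 32851 mouse promoter windows do, with 54.0% G and C and 15 CpG sites. *Tbx20* held 2 GC boxes, where 32.7% of windows hold at least 1, with 68.8% G and C and 22 CpG sites. The T-box core GGTGTG or CACACC, which 16.3% of windows hold, was in neither window, nor were the GATA letters AGATAA (9.99% of windows), the E-box letters CACCTG (17.2%) or the TATA letters TATAAA (12.4%), all searched on both strands. The window of *Tbx18* also lies within an annotated gene on the opposite strand, D030062O11Rik.

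The genes sit in the genome partly in pairs. In the GENCODE M21 annotation (GRCm38), *Tbx2* (chr11:85832551-85841948) and *Tbx4* (chr11:85886422-85916097) lie 44.5 kb apart on the plus strand with 1 annotated coding gene, Gm11444, between them, and *Tbx3* (chr5:119670669-119684724) and *Tbx5* (chr5:119832668-119885219) lie 148 kb apart on the plus strand with 3 annotated genes between them, 0 of them coding. *Tbx15* (chr3:99240381-99354259, plus strand), *Tbx18* (chr9:87702800-87731260, minus strand) and *Tbx20* (chr9:24718138-24774303, minus strand) have no other member nearby. For 0 of the 7 genes was there another gene on the same strand over the gene body. The chromosome 5 pair ran together over the libraries, both lowest in WT 1 and CharmeKO 1. This was not particular to neighbours, since *Tbx15* on chromosome 3 was lowest there too. The ratio of *Tbx15* to *Tbx3* and to *Tbx5* moved over 2.32-fold and 2.34-fold, against 3.45-fold for *Tbx3* to *Tbx5*. In the chromosome 11 pair both genes peaked in WT 3 and were at their lowest in CharmeKO 3, while in between the order parted, since CharmeKO 2 was second highest for *Tbx4* and second lowest for *Tbx2*.

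**Figure D5:**
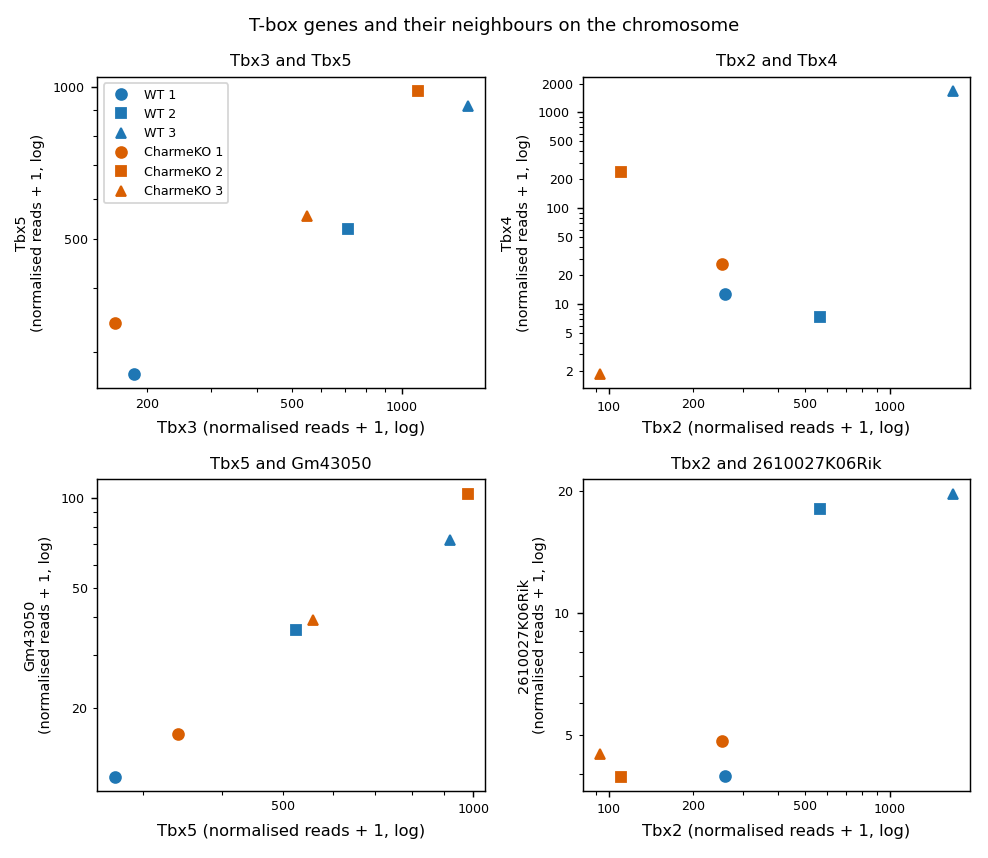
Each panel sets the normalised reads plus 1 (log axes) of a T-box gene against a neighbour on the chromosome, with 1 point per library (colour for genotype, symbol for replicate number). *Tbx5* and Gm43050 have the same order over the 6 libraries, and 2610027K06Rik is high in WT 2 and WT 3 as *Tbx2* is.

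Genes annotated on the opposite strand near the T-box genes were looked up by position after the values of the T-box genes had been seen. Counting by strand separates them from the T-box genes themselves. 2610027K06Rik, 328 bp from the start of *Tbx2*, was counted 3, 16 and 17 times in WT and 4, 3 and 4 times in CharmeKO. Its fitted log2 fold change was -1.35 (SE 0.788). It was high where *Tbx2* was high, in WT 2 and WT 3, at far fewer reads. Gm43050, 748 bp from the start of *Tbx5*, had 11, 33 and 65 reads in WT and 16, 104 and 44 in CharmeKO, with 77.2% of its sum of squares on the replicate number against 73.8% for *Tbx5*. D030062O11Rik, which overlaps the start of *Tbx18*, had 58, 39 and 50 reads in WT and 63, 52 and 50 in CharmeKO and so did not share the 5.94-fold range of *Tbx18*. Tbx3os1, antisense to *Tbx3*, had 0 to 10 reads and was below the filter, as was Gm29824 near *Tbx20* with 0 to 5 reads.

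The list of other family genes, which also held antisense transcripts such as Tbx3os1, had 6 genes in the table, and 3 passed the filter, with 0 called by limma (0 at an unadjusted p under 0.05), edgeR or DESeq2. *Mga*, which joins a T-box to a Myc-type domain, was the steadiest, with 2821, 4237 and 3702 normalised reads in WT and 2255, 4148 and 3497 in CharmeKO. It was lower in CharmeKO in each same-numbered pair, as were 14.0% of all genes tested. The fitted log2 fold change, -0.15 (SE 0.277), became 0.11 without CharmeKO 1. *Tbx6*, a factor of paraxial mesoderm, had 16.7, 82.2 and 36.3 normalised reads in WT and 18.3, 96.3 and 62.6 in CharmeKO. It was lowest in the libraries numbered 1, like *Tbx3*, *Tbx5* and *Tbx15*, and higher in CharmeKO in each pair, as were 16.4% of all genes tested. Its log2 fold change was 0.37 (SE 0.825), and it became -0.18 without WT 1 and -0.12 without CharmeKO 2. *Tbr1*, a factor of cortical neurons, had 1.95 to 10.1 normalised reads as means by replicate number and a log2 fold change of 0.32 (SE 0.860), which became -0.19 without WT 1 and -0.17 without CharmeKO 2. *Eomes*, with 2.95 to 17.4 normalised reads, and *Tbx1*, with 0 to 5.91, were below the filter.

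Partner factors, which bind with T-box proteins or act beside them in the heart, gave 0 called of 19 tested by limma, edgeR or DESeq2 (0 at an unadjusted p under 0.05, and 1 with the replicate block in limma, beside 0.897% and 5.37% of all genes). Their log2 fold changes were negative for 12 and positive for 7, with a median of -0.14. *Hey1*, *Mef2c* and *Nr2f2* were lower in all 3 pairs and *Nr2f1* was higher, 4 of 19 with 1 sign beside 30.4% of all genes tested. *Hey1*, a Notch effector that limits *Tbx2* in chamber muscle, had 27.6, 24.6 and 13.2 normalised reads in WT and 16.3, 4.92 and 2.61 in CharmeKO, and its fitted log2 fold change was -1.60 (SE 0.742). *Hey2* ranged from 0 to 144.8 normalised reads with a log2 fold change of -1.04 (SE 2.15), and *Isl1* from 5.34 to 499 with 1.24 (SE 1.57). The highest means were those of *Gata6* (4625 ± 1481 in WT and 6520.5 ± 1448 in CharmeKO), *Mef2a* (4118 ± 954 and 4044 ± 522) and *Srf* (4372 ± 1062 and 3463 ± 206) in normalised reads, with log2 fold changes of 0.53 (SE 0.298), -0.0054 (SE 0.224) and -0.31 (SE 0.207).

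Known targets of T-box factors, many of them genes of heart muscle, gave 0 called of 12 tested by limma, edgeR or DESeq2 (0 at an unadjusted p under 0.05, and 1 with the replicate block in limma, beside 0.897% and 5.37% of all genes). Another 6 were below the filter. The median log2 fold change was -0.068. *Cdkn2a*, a senescence inhibitor of the cell cycle that *Tbx2* and *Tbx3* are known to repress, had 3359, 2080 and 3662 normalised reads in WT and 3835, 3715 and 4764 in CharmeKO. Its groups did not overlap, beside 4.11% of all genes tested (2.14% with CharmeKO higher), and its log2 fold change was 0.47 (SE 0.253). *Mycn*, a growth regulator that *Tbx2* represses in the embryonic heart, was also higher in all 3 pairs, with 353, 67.3 and 81.3 normalised reads in WT and 499.9, 617 and 136 in CharmeKO and a fitted log2 fold change of 1.47 (SE 0.825). These 2 of the 12 tested targets were higher in all 3 pairs and 0 were lower, beside 16.4% and 14.0% of all genes tested. *Cdkn1a*, another target of repression by *Tbx2*, had means of 16196 ± 1004 and 16787 ± 6257 normalised reads and a log2 fold change of -0.015 (SE 0.294). *Wnt2* had few reads, at most 31.5 normalised reads, and a log2 fold change of -1.31 (SE 1.75).

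Upstream signals gave 0 called of 17 tested by limma, edgeR or DESeq2 (0 at an unadjusted p under 0.05, and 4 with the replicate block in limma, beside 0.897% and 5.37% of all genes). The median log2 fold change was -0.18. The list holds genes of BMP signalling, which switches on *Tbx2* and *Tbx20* in the embryonic heart, beside Notch, retinoic acid, FGF and Wnt genes. Lower in all 3 pairs were 5 of 17, *Bmp2*, *Bmp4*, *Bmpr1b*, *Bmpr2* and *Smad9*, beside 14.0% of all genes tested, and *Smad1* was higher in all 3. *Bmp2*, the ligand of the atrioventricular canal, had 40.4, 131 and 69.2 normalised reads in WT and 33.7, 33.4 and 27.8 in CharmeKO, with no overlap and a log2 fold change of -1.16 (SE 0.520). *Bmpr2*, the type II receptor, had 8469, 9599 and 8928 normalised reads in WT and 5912, 8057 and 6991 in CharmeKO, also with no overlap and a log2 fold change of -0.37 (SE 0.175). Groups with CharmeKO lower and no overlap were found in 1.98% of all genes tested. *Aldh1a2*, which makes retinoic acid in epicardium, had 688, 40.6 and 1420.5 normalised reads in WT and 669, 58.0 and 67.8 in CharmeKO. Like *Tbx2* and *Tbx4* it was highest in WT 3, with a log2 fold change of -1.30 (SE 1.52). *Fgf9* (-1.51, SE 1.48), *Notch2* (-0.18, SE 0.178) and *Ctnnb1* (0.086, SE 0.212) completed the genes named by rule.

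The genes whose course over the 6 libraries was most like that of each T-box gene were found among 11583 genes with a mean of at least 100 normalised reads. Likeness was Pearson's r of log2(normalised reads + 1), given as a description with no test, since 6 points that share replicate numbers let many of 11583 genes reach a high r. For *Tbx2* they were *Sytl2* (r = 0.995), *Sec24d* (0.988) and *B3gnt3* (0.983). For *Tbx4* they were *Pabpc1* (r = 0.990), *Gm15427* (0.988) and *Rpl31-ps8* (0.974), the last of which is a pseudogene whose reads may be split with its parent. For *Tbx3* they were *Armcx4* (r = 0.999), *Kctd21* (0.996) and *Lima1* (0.993), and for *Tbx5* *Gramd1a* (r = 0.992), *Rbm38* (0.986) and *Vps37c* (0.986). For *Tbx15* they were *Pml* (r = 0.997), *Mast4* (0.996) and *Lrsam1* (0.996). For *Tbx18* they were *Gjb5* (r = 0.997), *Tbc1d7* (0.997) and *Bbs7* (0.996), and for *Tbx20* *Nif3l1* (r = 0.999), *Tmed2* (0.997) and *Cd81* (0.997). *Sytl2* had 339.8, 473 and 929 normalised reads in WT and 308, 204 and 160.0 in CharmeKO, the same order of libraries as *Tbx2* over a narrower range.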

How the data were processed

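The authors aligned reads with STAR, counted them per gene on the reverse strand with an Ensembl annotation to which *Charme* had been added, dropped the lowest genes and applied DESeq2 normalisation. Per gene and library, the deposited value is the resulting read signal. The study's methods name the mouse assembly GRCm39, and the submitters' processing notes name GRCh38 beside it. The annotation release named may not match that assembly, so coordinates and exon lengths are those of the reference named with them and not of the authors' counting.

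The values of each library were whole multiples of 1 step, so reads were recovered by division (100% whole). CPM and RPKM were computed from these reads and the exon lengths of GENCODE M21. The main test was limma 3.58.1 with a mean-variance trend on log2(normalised value + 1), with genotype as the only term, fitted to all genes that reached 10 reads in 2 libraries or more and adjusted by Benjamini and Hochberg at 0.05, two-sided. The log2(value + 1) scale understates changes of genes with few reads. edgeR 4.0.16 (quasi-likelihood) and DESeq2 1.42.0 on the recovered reads, other scalings, pseudocounts and filters, the replicate number as a block, and leaving out each library were alternatives. Scripts were tested on simulated data. R 4.3.3, Python 3.11.15 and matplotlib 3.10.9 were used.

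The T-box genes and the gene lists were chosen with earlier results of these data known. The text names the 7 T-box genes, the other family genes of the table, the *Charme* feature, from the partner, target and upstream lists the 3 genes with the largest absolute log2 fold change and the 3 with the highest mean, and for each T-box gene the 3 genes of highest r. Some genes that this rule names are not reported here. Genes named for a course shared by all pairs, and the antisense neighbours, were picked after their values were seen.

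Groups and replicate numbers came from the sample titles. The numbers were taken to pair the libraries. Deviations from the group means correlated across genes between same-numbered libraries with r = 0.762, 0.514 and 0.217, against -0.643 to 0.222 for different numbers. Deviations within a group cancel, so negative values for different numbers were partly forced. CharmeKO 3 was no closer to WT 3 (0.217) than to WT 2 (0.222), so these values did not single out pair 3. Native CFs were not analysed here, nor were listed genes without a row in the table. Genes are not independent replicates.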

Additional observations from a re-analysis of the deposited data

How the results depend on the processing

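0 T-box genes were called under every alternative run, and 0 genes of the other family, partner, target and upstream lists. DESeq2 gave no adjusted p to *Tbx4* without the block, nor to *Hey1*, *Wnt2* and *Tbr1* with it, so these could not be called there. Over the whole table the number of genes called was 0 with limma and edgeR, 8 with DESeq2, and 64 with DESeq2 and the replicate number as a block. The fold change of *Tbx2* was negative in 18 of 18 alternatives, and its lowest adjusted p in any of them was 0.161 (DESeq2 with the block). In the fits that left out 1 library, and with other pseudocounts, the negative sign followed from its groups not overlapping. Other filters and the limma block left the estimate unchanged, so the sign was fixed there as well. The count of 18 thus bears little on the direction. *Tbx20* changed sign to -0.41 with edgeR, -0.41 with DESeq2, -0.41 with edgeR on DESeq2 size factors and -0.0036 with a pseudocount of 5. With the replicate block *Tbx20* was -0.078 (edgeR) and -0.041 (DESeq2), and *Tbx4* was 0.41 (edgeR) and 0.81 (DESeq2), while limma with the block gave the same estimates as without it. The cause of these changes was not tested. Leaving out 1 library at a time gave -2.82 to -1.48 for *Tbx2*, -1.16 to 0.42 for *Tbx3*, -2.95 to 1.22 for *Tbx4*, -0.28 to 0.60 for *Tbx5*, -0.75 to 0.44 for *Tbx15*, -0.89 to 0.48 for *Tbx18*, -1.67 to 1.47 for *Tbx20*, -0.18 to 1.05 for *Tbx6*, -0.19 to 0.997 for *Tbr1* and -0.33 to 0.11 for *Mga*. The 2 members with 1 sign in all 3 pairs stayed 2 with plain library sizes. Other pseudocounts also gave 2, but a pseudocount cannot turn the sign of a pair difference, so that count was fixed in advance. Few reads were counted for *Tbx4*, with 1 to 26 reads in 4 of 6 libraries. CharmeKO 3, where it had 1 read, was the library with the most reads assigned to genes (46797446).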
